A study of Arabidopsis thaliana with 4 samples.

Results

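The monolignol synthesis genes described here are 10 Arabidopsis thaliana loci, PAL1, PAL2, C4H, 4CL1, 4CL2, HCT, C3H1, CCoAOMT1, COMT1 and CAD5, chosen by name as enzymes of the pathway. All 10 were listed in every library, among 21531 loci listed in at least 1. Polyadenylated RNA was sequenced from roots of seedlings 6 d old. They were either wild type of the Columbia ecotype (Col) or luh-4, a line in the same ecotype mutant in the transcriptional co-repressor gene LEUNIG_HOMOLOG (LUH). Each genotype had 1 control library and 1 Al library, from a pool of about 500 seedlings per treatment that had been grown at pH 5.5. Values in a series of 4 are in the order Col control, Col Al, and then luh-4 control before luh-4 Al. Control roots received 0 and Al roots 25 µM AlCl3 at pH 4.2, an acid solution that keeps aluminium soluble. The protocol has both arms collected after 4 h, whereas the label of each control says 0 h. If that label holds, aluminium and 4 h in acid solution cannot be told apart. With 1 library per group there is no replicate check and no p-value, and each comparison is between libraries.

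Monolignols are phenylpropanoid alcohols made from phenylalanine and exported to the wall, where laccases and peroxidases couple them into lignin. PAL, C4H and 4CL form the shared entry to all phenylpropanoids, including flavonoids and coumarins. HCT and C3H1 then hydroxylate the ring by way of a shikimate ester, CCoAOMT1 and COMT1 add methyl groups, and CAD reduces the aldehydes to alcohols. In young roots lignin lies mainly in xylem vessels and in the Casparian strip of the endodermis, and roots under aluminium stress are known to deposit extra lignin.

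The 4 libraries held between 13.45 M and 13.82 M (mega) reads. LUH had 75 and 63 reads in the Col libraries and 0 in both luh-4 libraries, and the aluminium-induced malate channel gene ALMT1 stood 0.80 higher with Al on the log2 scale in the wild type and 0.81 higher in the mutant. Levels are in RPKM, reads scaled by coding length and library total. A gene was called changed where its log2 ratio of RPKM plus 0.1 was at least 1 either way and its 95% exact conditional binomial interval, which covers counting error only, excluded 0. All 9 root cell markers, SCR, SHR and CASP1 among them, had reads in every library. Of 17 green shoot markers, RBCS1A and the light-harvesting genes among them, 16 were measured and 10 were called higher in luh-4 control than in Col control, LHCB1.1 furthest at 3.88. Their summed level was 497 RPKM in luh-4 control against 144 to 192 in the other libraries, and LHCA3, the marker at 0, had no reads in Col control. Of 9 wound and jasmonate markers, 8 were measured and 6 were called higher in luh-4 control, TAT3 furthest at 2.98, with a summed level of 140 RPKM against 82.9 to 102 elsewhere and none at 0. Among all 17070 loci tested, 2.41% were called between luh-4 control and Col control, either way. The part of the green shoot and wound markers in the values below was not tested. The green shoot genes took only 0.011% to 0.036% of the reads of a library, so leaving them out of the library totals could hardly move a ratio. Of 8 xylem secondary wall markers all had reads in every library, with summed levels of 285, 295, 243 and 277 RPKM. In these bulk roots, fewer cells of a type and less RNA per cell cannot be told apart.

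The members' levels as listed ran from 8.91 to 1393 RPKM. Gene positions are from the TAIR10.1 annotation of RefSeq. CCoAOMT1 (AT4G34050, chr4:16310409-16312308, plus strand), which methylates caffeoyl-CoA, had the highest level among the members in every library. It was listed at 1380, 1374, 1393 and 1267 RPKM, which placed it within the top 0.364% of listed loci everywhere. COMT1 (AT5G54160, chr5:21981902-21984399, plus strand), which methylates the precursor of sinapyl alcohol and also flavonols, was listed at 874, 655, 873 and 652 RPKM. The 2 Al libraries were its low ones. C4H (AT2G30490, chr2:12993625-12996012, minus strand), the cytochrome P450 that hydroxylates cinnamate, was listed at 831, 751, 736 and 647 RPKM. PAL1 (AT2G37040, chr2:15557367-15560755, minus strand), which removes ammonia from phenylalanine, followed at 511, 487, 477 and 460 RPKM. HCT, C3H1 and PAL2 lay between 244 and 360 RPKM in every library, and 4CL2 between 122 and 136. Of 36 pairs of neighbours in the order of level, counted over the libraries, 2 had overlapping 95% Poisson intervals. These were PAL2 and C3H1 in Col Al, at 264 and 256 RPKM, and COMT1 and C4H in luh-4 Al, at 652 and 647.

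CAD5 (AT4G34230, chr4:16386631-16388940, minus strand), a cinnamyl alcohol dehydrogenase, and 4CL1 (AT1G51680, chr1:19158746-19161737, minus strand), a CoA ligase of p-coumarate, were the lowest members as listed. CAD5 had 549, 520, 584 and 534 reads, or 35.0 to 39.6 RPKM. 4CL1 had 243, 249, 206 and 206 reads, or 8.91 to 10.7 RPKM. Over the 4 libraries both have 2 listed transcripts, although CAD5 has 1 in each Col library, and their main transcript was covered over only 40.22% to 42.74% of its coding length for CAD5 and 17.67% to 21.17% for 4CL1. Among loci with at least 100 reads in Col control, coverage was under 50% for 61.7% of 759 loci with several transcripts listed over the 4 libraries and for 2.70% of 10799 with 1. The levels of CAD5 and 4CL1 may therefore be understated, and their places in the order are uncertain. Per covered length, 4CL1 came to 44.2 to 59.6 RPKM and CAD5 to 85.1 to 92.8. CCoAOMT1, the other member with 2 transcripts, was covered over at least 82.56%, and the remaining 7 members over 100% in every library.

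**Figure D1:**
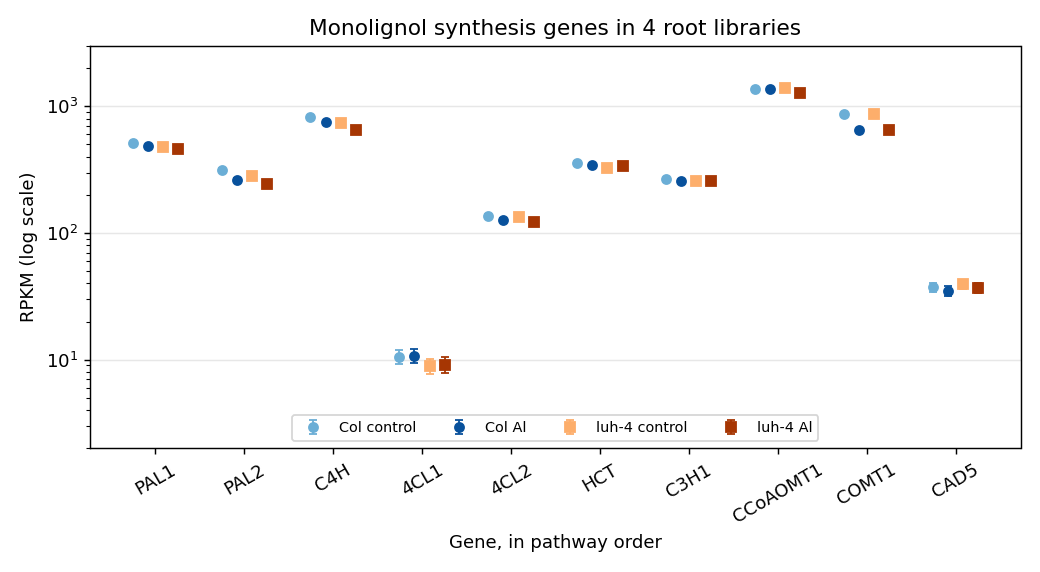
Level of each of the 10 genes in each library, as RPKM on a log scale, with 95% Poisson intervals from the reads (1 library per group). CCoAOMT1 is highest in all 4 libraries, the 2 Al libraries lie below both controls for COMT1, and 4CL1 and CAD5, which were counted on part of their length, are lowest.

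AC elements, short cytosine-rich motifs bound by MYB factors of lignin synthesis, were looked for in the 300 bases upstream of the annotated gene start of each member in the TAIR10.1 genome of RefSeq. The motifs searched were ACCTACC (AC-I), ACCAACC (AC-II) and ACCTAAC (AC-III), on both strands. At least 1 was found upstream of 5 of the 10 members, 4CL2, HCT, C3H1, CCoAOMT1 and CAD5, and in 7.16% of 27443 windows of the same length upstream of protein-coding genes. AC-II was found in 4 members and 3.18% of all windows, AC-I in 1 member and 1.33%, and AC-III in 0 members and 2.93%. All 6 matches lay on the strand of the gene and none overlapped another. No match was found for PAL1, PAL2, C4H, 4CL1 or COMT1, which says only that these letters are not in this window. The windows below show HCT and C3H1, which catalyse successive steps and hold AC-II 84 to 90 and 16 to 22 bases before the gene start, CCoAOMT1 with AC-I at 207 to 213 bases, and COMT1, the member with the furthest Al ratio, without a match. Capitals mark AC elements. The windows are HCT at chr5:19838236-19838535, minus strand, C3H1 at chr2:17060653-17060952, minus strand, CCoAOMT1 at chr4:16310109-16310408, plus strand, and COMT1 at chr5:21981602-21981901, plus strand, each written 5′ to 3′ on the strand of the gene.
HCT: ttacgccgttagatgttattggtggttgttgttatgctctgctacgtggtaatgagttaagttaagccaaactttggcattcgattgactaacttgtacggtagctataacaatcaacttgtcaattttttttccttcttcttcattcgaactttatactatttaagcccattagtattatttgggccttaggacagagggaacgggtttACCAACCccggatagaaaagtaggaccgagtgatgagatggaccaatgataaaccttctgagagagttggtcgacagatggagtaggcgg
C3H1: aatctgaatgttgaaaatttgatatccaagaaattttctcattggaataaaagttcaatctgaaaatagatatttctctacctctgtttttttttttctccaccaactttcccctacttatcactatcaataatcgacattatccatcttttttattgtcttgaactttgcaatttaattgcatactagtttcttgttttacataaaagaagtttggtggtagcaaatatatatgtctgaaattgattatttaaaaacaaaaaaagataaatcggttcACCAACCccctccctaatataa
CCoAOMT1: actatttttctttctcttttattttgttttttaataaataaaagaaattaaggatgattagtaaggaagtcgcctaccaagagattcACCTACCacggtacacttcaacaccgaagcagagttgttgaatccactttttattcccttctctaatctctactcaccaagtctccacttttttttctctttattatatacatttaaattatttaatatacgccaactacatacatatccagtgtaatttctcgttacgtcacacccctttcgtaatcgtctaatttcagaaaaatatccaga
COMT1: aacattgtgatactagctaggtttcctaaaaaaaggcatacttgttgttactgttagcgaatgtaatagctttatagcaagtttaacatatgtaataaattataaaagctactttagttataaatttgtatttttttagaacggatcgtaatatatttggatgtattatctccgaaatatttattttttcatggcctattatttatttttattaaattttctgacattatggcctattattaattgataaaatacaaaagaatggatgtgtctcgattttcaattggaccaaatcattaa

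**Figure D2:**
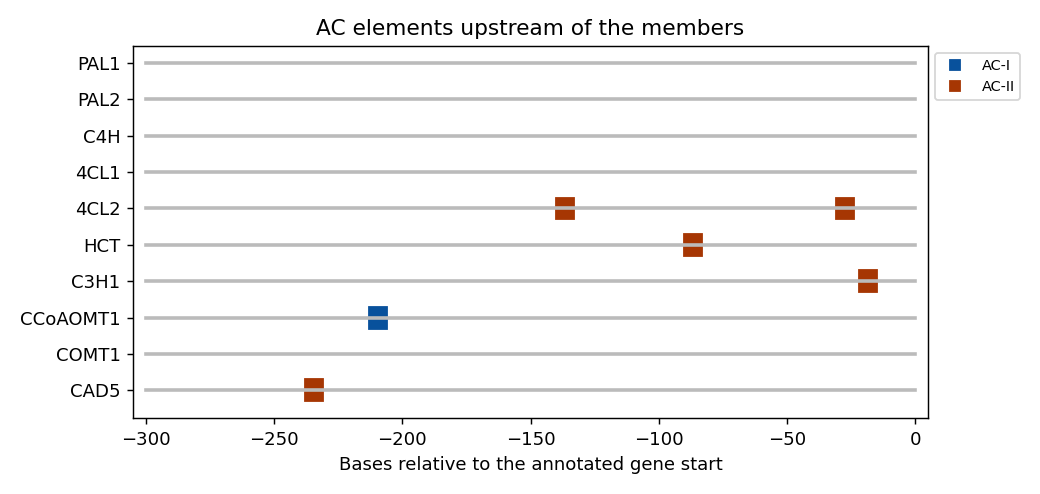
AC elements in the 300 bases upstream of the annotated start of each member; each square is a match, placed by its distance from the start and coloured by motif. 4CL2 holds 2 matches, HCT, C3H1, CCoAOMT1 and CAD5 hold 1 each, and the other 5 members hold none.

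The comparison of Al with control roots asked how the pathway stood after aluminium in each genotype. In Col, 0 of 10 members were called, beside 5.51% of 17068 loci tested, and in luh-4, 0 of 10 beside 5.12% of 17117. At a log2 ratio of 0.5 either way 0 members were called in either genotype, beside 14.9% and 14.4% of loci. The members' median log2 ratio was -0.08 in Col and -0.12 in luh-4, beside 0.02 and -0.02 over all loci tested. Below 0 were 9 of 10 members in Col and 7 of 10 in luh-4, beside 47.3% and 52.8% of all loci tested. Of these members, 6 in each genotype had an interval that excluded 0, and no member had an interval above 0. An interval that excludes 0 was also found for 38.8% of all loci in Col and 37.5% in luh-4. At this depth small differences between libraries thus pass counting error widely. Intervals narrow as reads grow, and every member but 4CL1 and CAD5 lay within the top 7.8% of listed loci by level. Here and in the comparisons below, such shares over all loci are therefore not like for like with the members' counts. As a share of all reads, the 10 members together took 0.625% (0.620 to 0.629, 95% Clopper-Pearson) in Col control and 0.566% (0.562 to 0.570) in Col Al. The share was 0.590% (0.586 to 0.594) in luh-4 control and 0.530% (0.526 to 0.534) in luh-4 Al.

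COMT1 was the member furthest from 0. It had 13066 reads in Col control and 9891 in Col Al, and 13095 in luh-4 control and 9580 in luh-4 Al, so both Al libraries lay below both controls. Its log2 ratio was -0.41 (-0.45 to -0.38) in the wild type and -0.42 (-0.46 to -0.38) in the mutant, which is 0.750 and 0.747 times the control level. A ratio at or below that of COMT1 was found for 13.1% of loci in Col and 14.7% in luh-4. The other methyltransferase, CCoAOMT1, had 14745, 14812, 14919 and 13288 reads. Its log2 ratio was -0.01 (-0.04 to 0.03) in the wild type and -0.14 (-0.17 to -0.10) in the mutant, so luh-4 Al was its lowest library and the other 3 were close together. The level of CCoAOMT1 was 1.58 times that of COMT1 in Col control and 1.60 times in luh-4 control, against 2.1 times in Col Al and 1.94 times in luh-4 Al.

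Among the entry enzymes, PAL2 (AT3G53260, chr3:19744018-19747114, minus strand), the second main ammonia-lyase, had 9359 reads in Col control and 7862 in Col Al, a log2 ratio of -0.26 (-0.31 to -0.22). In luh-4 it had 8323 and 7069 reads, a ratio of -0.21 (-0.25 to -0.16). PAL1 lay closer to 0, with 15244 and 14648 reads in Col (-0.07, -0.10 to -0.04) and 14279 and 13472 in luh-4 (-0.05, -0.09 to -0.02). Both Al libraries lay below both controls for PAL2, whereas for PAL1 the Col Al library lay above luh-4 control. C4H had 17272 and 15763 reads in Col, a ratio of -0.14 (-0.18 to -0.11), and 15343 and 13206 in luh-4, a ratio of -0.19 (-0.22 to -0.15). For 4CL2 (AT3G21240, chr3:7454269-7457404, minus strand), the more abundant listed CoA ligase, 3105 and 2953 reads in Col gave -0.09 (-0.16 to -0.01), and 3091 and 2732 in luh-4 gave -0.15 (-0.22 to -0.07). The ratios of 4CL1 were 0.02 (-0.24 to 0.28) and 0.03 (-0.26 to 0.32), the widest intervals among the members.

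The enzymes of the shikimate ester steps lay close to 0. HCT (AT5G48930, chr5:19836299-19838235, minus strand), the acyltransferase that makes p-coumaroyl shikimate, had 6412 and 6141 reads in Col, a ratio of -0.08 (-0.13 to -0.02), and 5815 and 5877 in luh-4, a ratio of 0.05 (-0.01 to 0.10). C3H1 (AT2G40890, chr2:17058053-17060652, minus strand), the cytochrome P450 CYP98A3 that hydroxylates this ester, had 5550, 5410, 5421 and 5318 reads. Its ratios were -0.05 (-0.10 to 0.00) and 0.00 (-0.05 to 0.06), and its highest library was only 1.04 times its lowest, the narrowest range of the 10. Other annotated genes overlap the loci of C3H1 and 4CL1, and since strand was not stated their reads cannot be separated. CAD5 had ratios of -0.09 (-0.27 to 0.08) in the wild type and -0.10 (-0.27 to 0.07) in the mutant.

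Cell markers also differed between the Al and control libraries. The 9 root cell markers summed to 3297, 2112, 2662 and 1792 RPKM. Most of that sum came from the nitrate and phosphate transporter genes NRT2.1, at 1155, 692, 733 and 406 RPKM, and PHT1;1, at 1369, 825, 1168 and 759. SCR, SHR and PLT1, regulators of root patterning, had ratios of 0.01, 0.13 and 0.08 in Col. Their ratios in luh-4 were 0.01, 0.09 and 0.00. CASP1 of the endodermis had -0.08 and -0.10. The root cell marker WER lay further below 0, at -0.31 for the wild type and -0.13 for the mutant. Its interval included 0 in each genotype. The root hair genes EXPA7 (-2.03, -2.18 to -1.87) and COBL9 (-1.64, -1.81 to -1.49) were called lower with Al in Col. In luh-4 they had -0.85 (-0.96 to -0.75) and -0.85 (-0.98 to -0.73), short of the size rule. The 8 xylem secondary wall markers had a median log2 ratio of 0.13 in Col, 6 of 8 above 0, and 0.19 in luh-4, 8 of 8 above 0, with 0 called in either genotype. Their signs were mostly opposite to those of the monolignol synthesis genes, but in each genotype several of the xylem intervals included 0. The part of either marker list in the members' ratios was not tested.

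**Figure D3:**
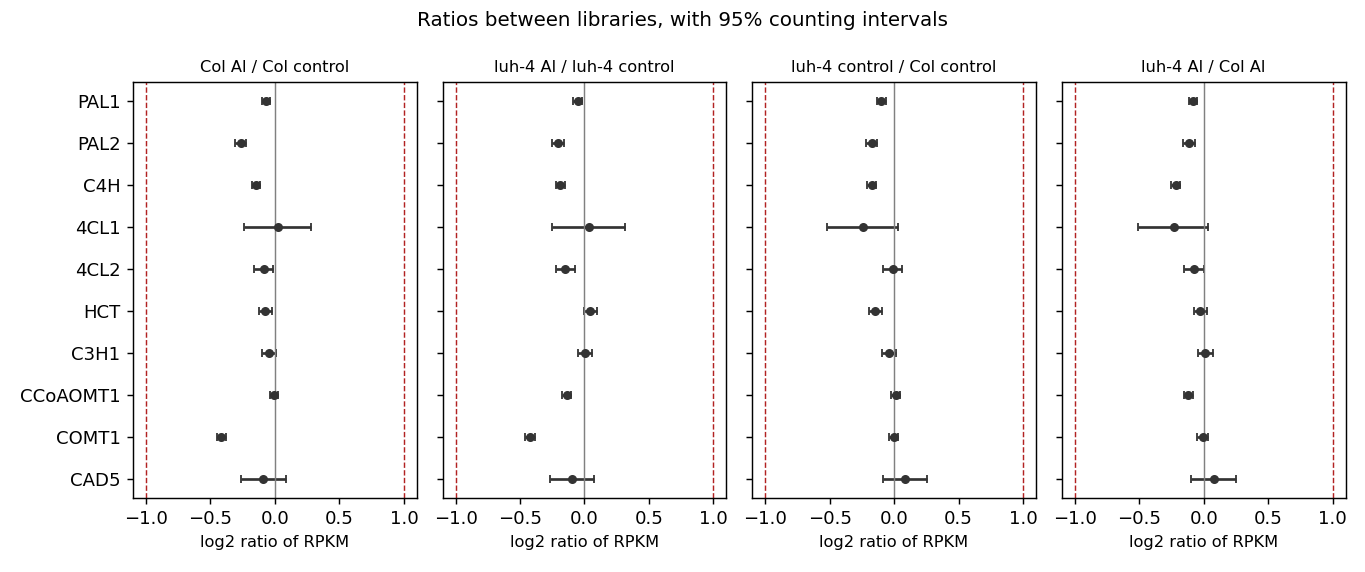
Log2 ratios of the 10 genes in 4 comparisons between libraries, with 95% counting intervals; dashed red lines mark a log2 ratio of 1 either way. No gene reaches the dashed lines, and COMT1 lies at -0.41 and -0.42 in the 2 Al comparisons and near 0 in the 2 comparisons of genotypes.

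**Figure D4:**
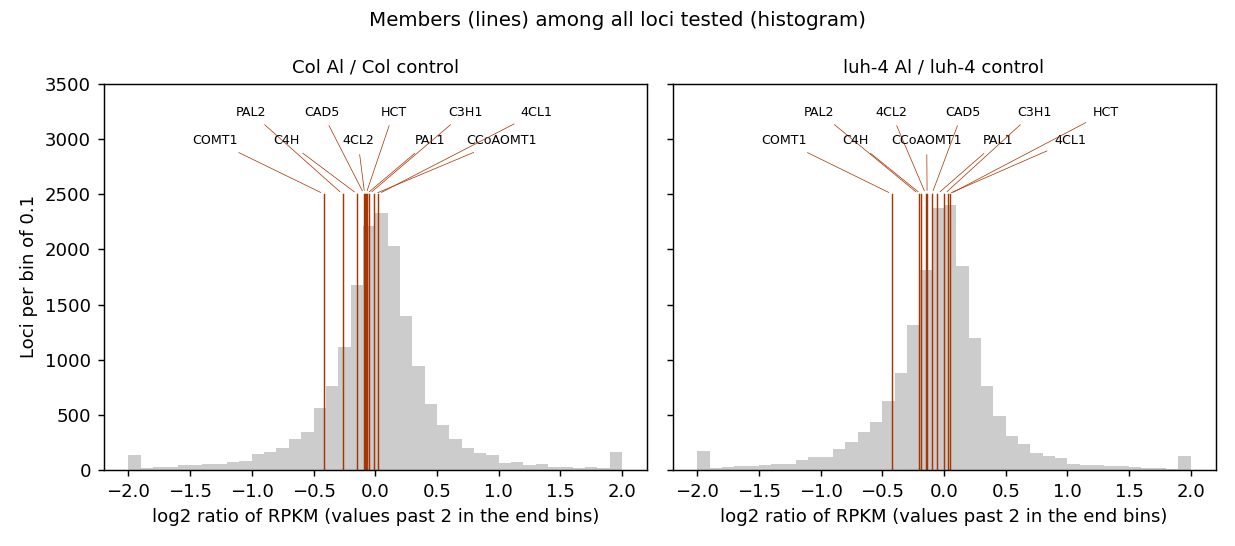
Histogram of the log2 ratios of all loci tested in Col (17068) and luh-4 (17117), with a line for each of the 10 genes. The genes lie inside the bulk of the distribution, between -0.41 and 0.02 in Col and between -0.42 and 0.05 in luh-4.

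The 5 members with an AC element upstream had Al ratios from -0.09 to -0.01 in Col and from -0.15 to 0.05 in luh-4. The 5 without one, COMT1 among them, ranged more widely, from -0.41 to 0.02 and from -0.42 to 0.03. These ranges are a description and the difference between them was not tested.

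The Al ratios of the genotypes come from separate libraries. Of the 10 members, 8 had the same sign in both, 7 of them below 0. Across the 10 genes, which share their libraries, Pearson's r was 0.867 and Spearman's rho was 0.770, given as a description. For the difference between the Al responses, luh-4 minus Col, 0 of 10 members passed a difference of 1, beside 3.61% of 17435 loci, or one of 0.5, beside 9.62%, and the members' median was 0.00 beside -0.04 over all loci. The interval of the difference excluded 0 for 2 members, HCT at 0.12 (0.05 to 0.19) and CCoAOMT1 at -0.13 (-0.18 to -0.08), and for 23.9% of all loci. For COMT1 the difference was -0.01 (-0.06 to 0.05), and for it, as for the other 7 members, the interval included 0.

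The comparison of luh-4 with Col asked whether the mutant differed in this pathway. Without Al, 0 of 10 members were called beside 2.41% of 17070 loci, and with Al 0 of 10 beside 2.17% of 17011. At a log2 ratio of 0.5 either way, 0 were called beside 7.86% and 7.48%. An interval that excluded 0 was found for 4 of 10 members in each comparison, beside 28.2% and 28.9% of loci. The median log2 ratio of luh-4 to Col was -0.07 without Al and -0.08 with Al, beside 0.02 and -0.02 over all loci. In each comparison 8 of 10 members lay below 0, beside 46.3% of loci without Al and 54.0% with Al. The entry enzymes PAL1, PAL2 and C4H had intervals below 0 in both comparisons. C4H had the furthest ratios of these, -0.17 (-0.21 to -0.14) without Al and -0.22 (-0.25 to -0.18) with Al. PAL2 had -0.17 (-0.22 to -0.13) and -0.11 (-0.16 to -0.07), and PAL1 had -0.10 (-0.13 to -0.07) and -0.08 (-0.12 to -0.05). For these 3 genes each luh-4 library lay below the Col library of the same treatment. HCT had -0.14 (-0.20 to -0.09) without Al and -0.02 (-0.08 to 0.03) with Al, and CCoAOMT1 had 0.01 (-0.02 to 0.05) and -0.12 (-0.15 to -0.08). COMT1 did not follow the genotype, at 0.00 (-0.04 to 0.03) and -0.01 (-0.05 to 0.03). The intervals of 4CL1, at -0.24 (-0.52 to 0.03) and -0.23 (-0.51 to 0.04), 4CL2, C3H1 and CAD5 included 0 in both comparisons. Beside these values, the 8 xylem markers had a median of -0.22 in luh-4 control against Col control, all 8 below 0 and 0 called, and -0.16 with Al, 6 of 8 below 0 and 0 called. The 9 root cell markers had a median of 0.18 without Al, 5 above 0, 4 below and 0 called. They ran from -0.66 for NRT2.1 to 0.26 for EXPA7. With Al their median was 0.10, again 5 above and 4 below, from -0.77 for NRT2.1 to 1.43 for EXPA7, the 1 called. CASP1 had -0.22 and -0.24. The part of the xylem and root cell markers in the members' ratios was not tested.

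Over the 4 libraries, Col control was the highest library for 7 of 10 members and luh-4 Al the lowest for 6. The highest library was 1.34 times the lowest for COMT1, 1.3 times for PAL2 and 1.28 times for C4H, and between 1.04 and 1.2 times for the other 7. Set against Col control, luh-4 Al had all 10 members below 0, beside 49.7% of 17055 loci, with a median of -0.16. Of the members 0 were called, beside 4.9% of loci at a log2 ratio of 1 and 15.1% at 0.5. The interval excluded 0 for 7 members, beside 39.6% of loci. In that comparison the ratios were -0.42 for COMT1, -0.38 for PAL2 and -0.36 for C4H. This comparison leaves out luh-4 control, the library with the high green shoot and wound markers, but it changes genotype and Al together. Those cannot be told apart in it. It also sets the library that was most often the lowest against the one most often the highest, so ratios below 0 partly follow from that choice.

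Several steps are encoded by paralogs, whose shares were taken per coding length. PAL1 made up 61.7% (61.1 to 62.3) of the PAL1 and PAL2 level in Col control, 64.8% (64.2 to 65.4) in Col Al, 62.9% (62.3 to 63.5) in luh-4 control and 65.3% (64.7 to 66.0) in luh-4 Al. The Al share was above the control share in each genotype by more than the counting intervals. The intervals of the 2 controls overlapped only at their edge, near 62.3%, which does not show that the control shares were equal. Their coding sequences were 84.0% identical over 2147 aligned bases, with identical runs of up to 80 bases, so some reads may have been assigned between them. PAL4, a further ammonia-lyase gene, was listed at 22.3, 30.5, 25.8 and 27.3 RPKM, far below PAL1 and PAL2. Its log2 ratio with Al was 0.45 (0.31 to 0.60) in the wild type and 0.08 (-0.07 to 0.23) in the mutant. 4CL2 was listed at 11.9 to 15.1 times the level of 4CL1, but 4CL1 was counted on under 22% of its length, and per covered length its share of the pair was 24.7% to 30.5% in place of 6.20% to 7.72%. The adjacent gene 4CL5, also a CoA ligase gene, had 77.6, 68.7, 77.2 and 65.2 RPKM, with Al ratios of -0.17 and -0.24. 4CL3, which serves mainly flavonoid synthesis, was listed at 1.60 to 2.52 RPKM. CAD4, the other main lignin CAD, was listed at 463, 419, 435 and 408 RPKM, far above CAD5 as listed, and its Al ratios were -0.14 (-0.19 to -0.09) and -0.09 (-0.14 to -0.04). Per covered length CAD5 made up 16.7% to 18.3% of the pair in place of 7.46% to 8.35%.

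Among 14 other enzymes of the pathway, 12 were measured and 0 were called in any of the 5 comparisons, with medians from -0.10 to -0.01. The aldehyde dehydrogenase gene ALDH2C4 had the highest level, 490 RPKM in Col control, and Al ratios of 0.29 (0.25 to 0.33) and 0.16 (0.12 to 0.20). CCR1, the reductase that precedes CAD, had -0.01 (-0.16 to 0.14) in the wild type and 0.28 (0.12 to 0.44) in the mutant, on at least 35.27% of its length. F5H1 and CSE were picked after their values were seen. F5H1, the ferulate hydroxylase that supplies COMT1, was listed at 228, 173, 183 and 130 RPKM, with Al ratios of -0.40 (-0.46 to -0.33) and -0.49 (-0.57 to -0.42). CSE, which cleaves caffeoyl shikimate, had Al ratios of -0.33 (-0.41 to -0.25) and -0.38 (-0.46 to -0.30). Of the 12 measured genes, 9 lay below 0 with Al in Col and 6 in luh-4.

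Of 20 genes of shikimate and phenylalanine supply, 17 were listed, and 0 were called in any comparison, with Al medians of -0.02 in Col (17 measured) and -0.05 in luh-4 (16 measured). DHS3, an enzyme at the entry of the shikimate pathway, was the most abundant, with Al ratios of 0.11 (0.08 to 0.14) and 0.08 (0.05 to 0.11). Of 10 genes of export and polymerisation, 1 rose and 1 fell in each genotype, beside 5.51% of loci called either way in Col and 5.12% in luh-4. The medians of this list were 0.09 in Col and 0.25 in luh-4. PRX49, a class III peroxidase gene, rose by 1.81 (1.69 to 1.93) in the wild type and 1.70 (1.57 to 1.84) in the mutant. PRX71, another peroxidase gene, had ratios of -2.01 (-2.12 to -1.91) and -1.83 (-1.92 to -1.75) and fell. Both peroxidase genes were named because they passed the size rule, which no monolignol synthesis gene did, so their greater distance from 0 follows from that choice. The other genes of this list were not called with Al. PRX52 had a difference between the Al responses of -1.0 (-1.85 to -0.19), on 33 to 64 reads per library.

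**Figure D5:**
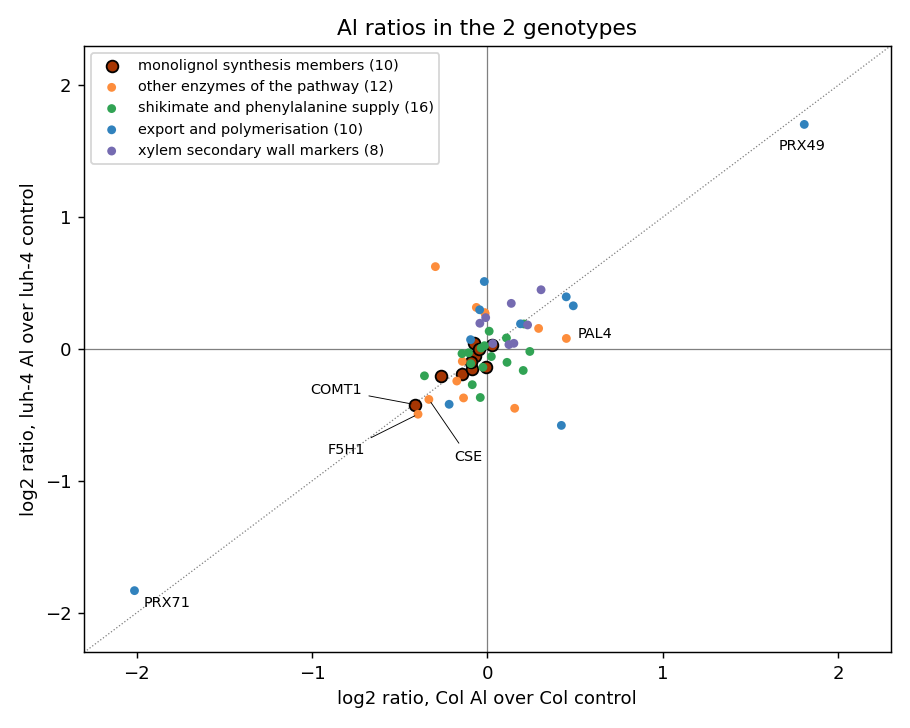
Log2 ratio of Al to control in Col (x axis) and in luh-4 (y axis) for the 10 monolignol synthesis genes (outlined) and for genes of neighbouring steps and xylem markers, with the number plotted in brackets; the dotted line marks equal ratios. The outlined genes lie between -0.42 and 0.05. The peroxidase genes PRX71, at -2.01 and -1.83, and PRX49, at 1.81 and 1.70, which were the genes of their list called with Al, lie far out on opposite sides.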

How the data were processed

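Messenger RNA enriched with oligo(dT) beads was sequenced on an Illumina instrument, per the labels' protocols. TAIR 10 is the build named in the submitters' processing notes, while the aligner and the counting tool were not given in the sources used here. Per the file headers, the authors deposited for each library the read counts per transcript, coding length, percent of that length covered and RPKM. The deposited RPKM equalled reads scaled by length and header total, within a relative difference of 5.13e-15. Reads and RPKM were summed over transcripts of a locus; transcripts not listed were taken as 0 reads.

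Loci with at least 1 RPKM in a library compared were tested, on log2 of RPKM plus 0.1, a pseudocount that pulls the ratios of low genes towards 0. Intervals were exact conditional binomial on reads, or normal on log reads plus 0.5 for the difference between Al responses, at a level of 95%. They cover counting error only and no variation between replicates. Since PCR reads are not independent molecules, even counting error may be understated. The self-test on simulated reads is not quoted. With 1 library per group no test of conditions was made; an additive model of genotype and Al, which would leave 1 residual degree of freedom, was not run. Genes named are the members, those past the size rule on each other list (at most 4) or else its most abundant gene, PAL4, CAD4, 4CL3, CCR1, LUH and ALMT1. After their values were seen, 4CL5, F5H1, CSE, PHT1;1, SCR, SHR, WER, PLT1, CASP1, LHCA3, MED5A and MED5B were added. Members and lists were chosen with earlier results of these data known.

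Gene positions and upstream windows came from the RefSeq TAIR10.1 genome, since the files carry no coordinates; its coding lengths equalled the deposited ones for 10 of 10 members and 97.3% of 21250 loci. Shared coding bases of paralogs came from global alignment of the longest coding models. Alternatives changed the pseudocount, RPKM minimum, scaling (edgeR 4.0.16 TMM factors, DESeq2 1.42.0 size factors, in R 4.3.3), library total, size of a call, transcript choice and baseline. Ratios and intervals were computed in Python 3.11.15 (scipy 1.17.1, pandas 2.3.3, numpy 2.4.6), and plots drawn with matplotlib 3.10.9.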

Additional observations from a re-analysis of the deposited data

How the results depend on the processing

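Over the alternatives, the members' median log2 ratio ranged from -0.10 to -0.08 for the Al response of Col. For that of luh-4 it ranged from -0.16 to -0.10. The end of -0.16 came from taking luh-4 Al against Col control, which changes genotype and Al together. For the genotype the range was -0.09 to -0.07 without Al and -0.08 to -0.06 with Al. For the difference between responses it was just below 0 to 0.04. The number of members past the size rule was 0 under every alternative run, a log2 size of 0.5 included. Taken against Col control in place of its own control, luh-4 Al had 4 of 10 single ratios outside their intervals, those of PAL1 (-0.15), PAL2 (-0.38), C4H (-0.36) and HCT (-0.10). Under the other 9 settings none of 50 ratios left its interval. Among those settings, changes of the RPKM minimum could not alter a member's ratio, since every member lay above it. Leaving out the green shoot genes could hardly do so. The shares that moved were those per covered length, chosen after seeing the data: for 4CL1 30.5%, 28.3%, 24.7% and 27.6%, and for CAD5 16.7%, 16.9%, 17.6% and 18.3%, in the order of libraries used above. They follow from dividing by the covered part of the coding length. No paired analysis was possible because groups of 1 library give no replicate pairs. The Al ratios within each genotype are given side by side in its place. Depth limits 4CL1 most, with 206 to 249 reads per library.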

Other observations

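Of 18 transcription factor genes of lignin synthesis, 17 were listed, 16 were measured in Col and 14 in luh-4, with Al medians of 0.12 and 0.15. By the size rule 1 of 16 was called with Al in Col and 1 of 14 in luh-4, both on few reads. The shares called over all loci tested were 5.51% and 5.12%. MYB20 fell with Al in Col, from 21 to 7 reads (-1.45, -3.08 to -0.31). MYB15, a MYB gene linked to defence-induced lignin, had 15, 26, 33 and 14 reads in the 4 libraries, in the order used above. It was higher in luh-4 control than in Col control (1.08, 0.21 to 2.12) and fell with Al in luh-4 (-1.14, -2.22 to -0.27), while the wound and jasmonate markers were also highest in luh-4 control; their part was not tested. MYB46, a master regulator of secondary walls, had 59, 117, 66 and 61 reads. Its log2 ratio with Al was 0.96 (0.51 to 1.45) in the wild type and -0.08 (-0.61 to 0.44) in the mutant, a difference of -1.04 (-1.72 to -0.38).

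The 4 F-box genes KFB01, KFB20, KFB39 and KFB50 encode proteins that mark PAL enzymes for degradation. KFB50 fell with Al in luh-4 by 1.08 (-1.41 to -0.78), with 249, 235, 274 and 126 reads, and had -0.10 (-0.36 to 0.17) in Col. KFB39 was higher with Al in Col (0.90, 0.55 to 1.27), short of the size rule, and had -0.32 (-0.71 to 0.06) in luh-4. Its difference between the Al responses was -1.22 (-1.74 to -0.72). KFB01, the most abundant of them, had Al ratios of -0.65 (-0.75 to -0.55) and -0.99 (-1.11 to -0.88), neither past the size rule. Between luh-4 Al and Col control, KFB01 (-1.2) and KFB20 (-1.05) were lower by the size rule. MED5A and MED5B, Mediator subunits that restrain the pathway, the other genes of this list of 6, had Al ratios of 0.05 and 0.10 in Col and 0.07 and 0.01 in luh-4.

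Of 7 measured branch genes, only S8H, a coumarin hydroxylase gene, was called with Al. It fell in both genotypes, from 370 to 16 reads in Col (-4.42, -5.37 to -3.83) and from 155 to 3 reads in luh-4 (-5.11, -7.95 to -4.09). Of 4 measured genes at the entry of the flavonoid branch, F3PH, a flavonoid hydroxylase gene, fell in Col (-1.03, -1.31 to -0.77), and 0 were called in luh-4. Over all loci tested, 5.51% were called with Al in Col and 5.12% in luh-4, either way. Between luh-4 Al and Col control, CYP82C4 of the coumarin branch (-1.36) and the nitrate transporter gene NRT2.1 (-1.51) of the root markers were lower.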
